A study of Homo sapiens with 16 samples.

Results

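The 10 genes described here encode 9 cell adhesion molecules of the immunoglobulin (Ig) superfamily, ALCAM, NCAM1, MCAM, CADM1, ICAM1, L1CAM, CEACAM1, CEACAM5 and CEACAM6, and the epithelial adhesion molecule EPCAM. They were taken by symbol, and all 10 were found among the 26485 gene symbols listed in the files. Polyadenylated RNA of 2 human colon cancer lines was sequenced. SW480 was established from a primary colon tumour and SW620 from a lymph node metastasis of the same patient, and both carry a truncated APC and high Wnt signalling. Cells of each line carried GFP (labelled mock or control, Wnt high) or dnLEF1 (labelled experimental, Wnt low), a LEF1 without the part that binds beta-catenin. This gave 4 groups of 4 libraries, all at passage 6. How the constructs were delivered, what promoter drives them and whether the cells are clones is not stated in the labels. The labels do not say that the libraries of a group came from separate cultures, so the p-values measure the spread between these libraries, which may be technical.

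Ig-type adhesion molecules carry a row of Ig domains outside the cell and bind to copies of themselves or to other receptors on the neighbouring cell. Several of them are cut at the cell surface by ADAM proteases, and their short tails bind the actin-linked proteins inside. EPCAM has no Ig domain. It is an abundant surface protein of intestinal epithelium, and after cleavage by ADAM17 and gamma-secretase its tail can bind FHL2, beta-catenin and LEF1, so it touches the same pathway as the construct. LEF1 and its relatives bind short TCF/LEF motifs in DNA and activate Wnt target genes only when beta-catenin is bound to them.

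RefSeq promoter windows of GRCh38.p14, from 250 bases before to 50 bases after a gene's start, were at hand for 7 of the 10 genes: ALCAM, MCAM, ICAM1, L1CAM, CEACAM1, CEACAM5 and CEACAM6. No window was used for NCAM1, CADM1 or EPCAM. Each was searched on both strands for the TCF/LEF core CTTTGA, the E-box CACCTG to which ZEB and SNAIL repressors bind and the STAT-binding GAS element TTCNNNGAA. The kappaB motif GGGRNWYYCC, to which NF-kB binds, was searched for as well (N any base, R A or G, W A or T, Y C or T). The windows of 3 genes are shown, ALCAM because it moved in opposite directions in the lines, ICAM1 because it rose in SW480, and CEACAM1 because it alone held the TCF/LEF core. Capitals mark the matches, and each run is written 5′ to 3′ on the gene's own strand.

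ALCAM, chr3:105366659-105366958, plus strand: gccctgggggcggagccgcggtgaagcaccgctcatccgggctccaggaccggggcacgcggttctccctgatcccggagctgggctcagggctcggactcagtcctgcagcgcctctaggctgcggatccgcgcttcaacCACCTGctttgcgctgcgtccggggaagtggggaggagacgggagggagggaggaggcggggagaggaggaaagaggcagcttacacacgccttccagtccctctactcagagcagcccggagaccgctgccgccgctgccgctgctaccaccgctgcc
ICAM1, chr19:10270870-10271169, plus strand: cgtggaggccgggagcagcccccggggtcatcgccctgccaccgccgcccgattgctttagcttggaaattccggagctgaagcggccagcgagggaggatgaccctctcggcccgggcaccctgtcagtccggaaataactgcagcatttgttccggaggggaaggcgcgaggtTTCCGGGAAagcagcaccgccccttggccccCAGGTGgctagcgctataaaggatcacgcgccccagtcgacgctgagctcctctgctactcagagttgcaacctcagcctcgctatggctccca
CEACAM1, chr19:42528432-42528731, minus strand: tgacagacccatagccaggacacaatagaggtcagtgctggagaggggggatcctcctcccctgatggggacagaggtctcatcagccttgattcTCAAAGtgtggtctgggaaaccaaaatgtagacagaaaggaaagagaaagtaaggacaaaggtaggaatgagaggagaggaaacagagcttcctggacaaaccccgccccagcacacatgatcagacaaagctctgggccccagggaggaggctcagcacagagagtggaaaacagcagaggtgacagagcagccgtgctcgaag

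The capitals of the ALCAM window are an E-box at bases 142 to 147, counted from 1 at its 5′ end. The ICAM1 window holds a GAS element at bases 176 to 184 and an E-box at bases 207 to 212. The CEACAM1 window holds the TCF/LEF core, on the opposite strand, at bases 96 to 101. No matches overlapped. Over the 27305 promoter windows of this length in the table, 13.1% held the TCF/LEF core, 20.6% the E-box, 7.88% the GAS element and 5.72% the kappaB motif. The core was in 1 of the 7 member windows, the E-box in 4 (ALCAM, MCAM, ICAM1 and CEACAM5), and the GAS element in 1 (ICAM1). The kappaB motif in the strict form searched for was in 1 (MCAM). The ICAM1 window holds TGGAAATTCC, which differs from that form in its first base alone and was not counted. The ALCAM window is 70% G and C with 26 CpG, the ICAM1 window 64.7% with 24 and the CEACAM1 window 53.7% with 3, beside medians of 58.3% and 14 over all windows.

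The construct was checked first. LEF1 was at 51.7 ± 1.89 CPM in SW480 GFP and 246 ± 49.1 in SW480 dnLEF1, and at 3.36 ± 0.501 in SW620 GFP and 23.3 ± 2.35 in SW620 dnLEF1 (SD, n = 4). CPM are counts per 1000000 gene counts, on 1 scale for all 16 libraries. AXIN2, a feedback target of Wnt signalling, fell 7.87-fold in SW480 (edgeR adjusted p = 1.22e-12), whereas its log2 change in SW620 was -0.06 ± 0.05 (edgeR adjusted p = 0.607). Gene counts per library ran from 17181204 to 26153506. Reads aligned to more than 1 place made up 39.4% of SW620 GFP replicate 3 and 7.61% to 9.46% of each of the 15 others. The tables cannot separate reads of the construct from those of LEF1 itself. As to the labelled colon cancer type, the keratin genes KRT8 and KRT18 were at 3106 to 5518 CPM in all 4 groups, while KRT20 was at most 0.279 CPM on average. In bulk RNA, fewer cells with a transcript and less of it per cell cannot be told apart.

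**Figure D1:**
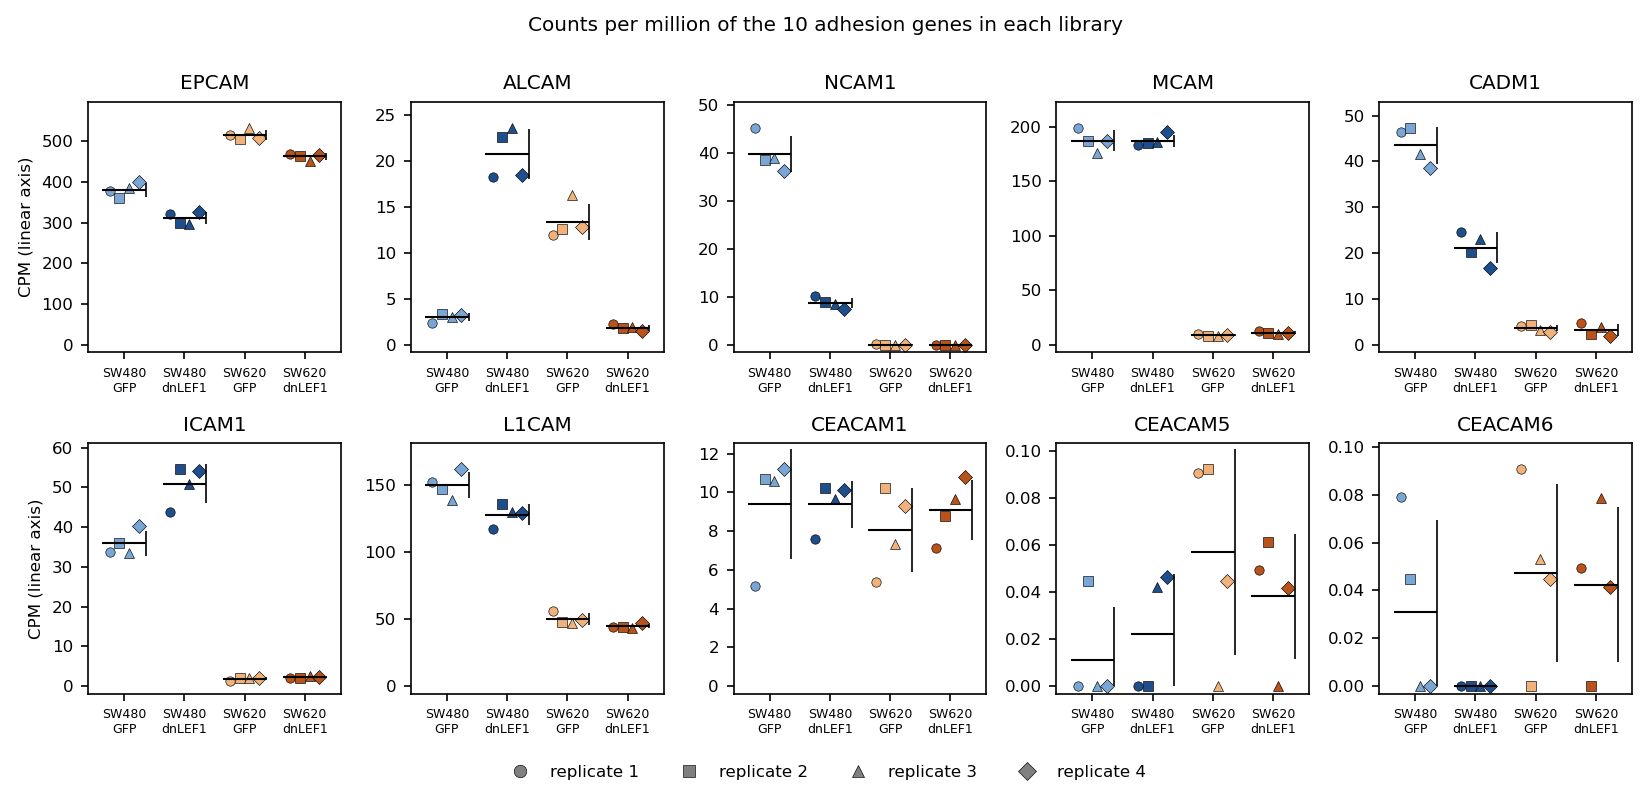
CPM of each gene (linear axes, a different range in each panel) in the 16 libraries, with 1 symbol per replicate number, the group mean as a horizontal line and 1 SD as a vertical line cut off at 0. ALCAM is high in SW480 dnLEF1 and SW620 GFP and low in the other two groups, NCAM1, MCAM, CADM1, ICAM1 and L1CAM are higher in SW480, and CEACAM5 and CEACAM6 stay below 0.1 CPM.

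dnLEF1 went with opposite changes of ALCAM in the lines. ALCAM, also called CD166, binds to itself and to CD6 on T cells and marks stem-like cells of the intestine. Its log2 change was 2.80 ± 0.13 in SW480 and -2.85 ± 0.15 in SW620. NCAM1 and CADM1 fell and ICAM1 rose in SW480, with smaller falls of EPCAM and L1CAM. In SW620 ALCAM alone passed the test.

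ALCAM (chromosome 3, 105366909 to 105576900, plus strand) was at 2.37, 3.40, 3.00 and 3.19 CPM in the SW480 GFP libraries and at 18.3, 22.6, 23.6 and 18.5 CPM in SW480 dnLEF1. In SW620 it was at 11.9, 12.6, 16.3 and 12.8 CPM with GFP and at 2.23, 1.84, 1.93 and 1.45 CPM with dnLEF1. The 4 groups stood in the order SW480 dnLEF1, SW620 GFP, SW480 GFP and SW620 dnLEF1, and no neighbours in this order overlapped. In SW480 the gene rose 6.98-fold (edgeR adjusted p = 6.02e-10), and in SW620 it fell 7.21-fold (edgeR adjusted p = 6.01e-08). By size its change ranked 324 among the 14426 genes tested in SW480 and 28 among the 13336 tested in SW620. The difference between the lines, SW620 minus SW480, was -5.65 ± 0.21 on the log2 scale (edgeR interaction, adjusted p = 5.02e-14), a ratio of 50.2. Between the GFP libraries ALCAM was 4.47-fold higher in SW620 (log2 2.16 ± 0.14, edgeR adjusted p = 4.10e-09). With dnLEF1 the lines stood the other way round, at 20.8 ± 2.76 CPM in SW480 and 1.86 ± 0.319 in SW620. These comparisons share libraries: each GFP group serves as the control of its line and in the comparison of the lines.

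The genes beside ALCAM on chromosome 3 were compared with it. The 12 tested genes on each side had a median log2 change of 0.11 in SW480, within a range of -2.64 to 4.92. There 8 rose and 4 fell, where 24.2% of all genes tested rose and 24.4% fell. In SW620 the median was 0.03 and the range -0.22 to 0.27. None of the 24 passed the test there, where 8.46% of all genes tested were called. In SW620 ALCAM was the 1 called gene of this stretch, while in SW480 1 neighbour, MYH15, rose by more (it is named after its value was seen).

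**Figure D2:**
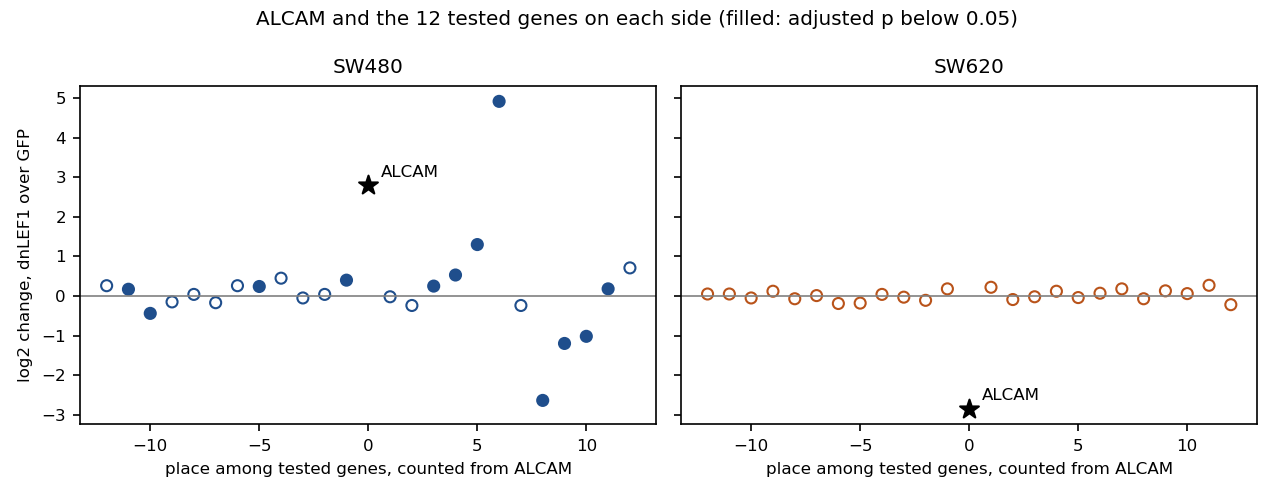
Log2 change with dnLEF1 (vertical axis) of ALCAM, drawn as a star, and of the 12 tested genes on each side of it, by their place on the chromosome (horizontal axis), in SW480 on the left and SW620 on the right, with filled points for an edgeR adjusted p below 0.05. In SW620 the 24 neighbours lie between -0.22 and 0.27 and ALCAM at -2.85.

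NCAM1 encodes the neural cell adhesion molecule CD56, found on neurons, natural killer cells and neuroendocrine cells (chromosome 11, 112961275 to 113278436, plus strand). It was at 45.2, 38.6, 39.0 and 36.2 CPM in SW480 GFP and at 10.1, 8.93, 8.54 and 7.50 CPM in SW480 dnLEF1, so every dnLEF1 library was below every GFP library. This was a fall of 4.52-fold (log2 -2.18 ± 0.10, edgeR adjusted p = 5.57e-10). In SW620 it had 3 counts over the 4 GFP libraries and 1 over the 4 dnLEF1 libraries, too few to test. The GFP libraries of SW480 held 3622 counts, 1131 times the SW620 level (95% exact interval 387 to 5487, counting error only). The antisense gene NCAM1-AS1, which overlaps it, had 1 count in all 16 libraries. Of the enzymes that add polysialic acid to NCAM1, ST8SIA2 and ST8SIA4 had no count in SW480.

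CADM1, a tumour suppressor in several carcinomas that binds itself and nectin-like partners (chromosome 11, 115169218 to 115504957, minus strand), fell in SW480 as well. It was at 46.4, 47.3, 41.6 and 38.6 CPM with GFP and at 24.5, 20.3, 23.0 and 16.8 CPM with dnLEF1, without overlap (log2 -1.04 ± 0.11, edgeR adjusted p = 2.57e-06). In SW620 it was at 3.61 ± 0.684 CPM with GFP and 3.26 ± 1.29 with dnLEF1 and the libraries overlapped, with replicate 4 the lowest in each of the 4 groups (log2 -0.14, 95% interval -0.66 to 0.38, edgeR adjusted p = 0.819). The effects in the lines differed by 0.90 ± 0.27 (edgeR interaction, adjusted p = 0.0157). That call ended without SW620 dnLEF1 replicate 1 (adjusted p = 0.0618) or replicate 3 (adjusted p = 0.0551). NCAM1 and CADM1 lie close together on chromosome 11. Of the 24 tested genes around NCAM1, 9 fell, CADM1 among them, and 0 rose in SW480 (median log2 -0.14, edgeR adjusted p below 0.05). Of the 24 around CADM1, 5 fell, NCAM1 among them, and 2 rose (median -0.12). Over all genes tested in SW480, 24.2% rose and 24.4% fell. The share of that stretch in the falls of both genes was not tested.

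MCAM, or CD146, is an adhesion molecule of endothelium and melanoma that also binds laminin alpha-4 (chromosome 11, 119308529 to 119321521, minus strand). In SW480 it was at 199, 187, 176 and 187 CPM with GFP and at 183, 185, 186 and 195 CPM with dnLEF1. The libraries overlapped, and the log2 change of 0.00 had a 95% interval of -0.13 to 0.13 (edgeR adjusted p = 0.964). In SW620 it was at 10.1, 8.21, 8.41 and 9.11 CPM with GFP and at 11.1 ± 1.17 CPM with dnLEF1 (SD, n = 4), where the lowest library lay within the GFP range, a log2 change of 0.31 ± 0.11 that did not pass (edgeR adjusted p = 0.106). It passed there in 1 fit of all 16 libraries (adjusted p = 0.0258). The effects differed between the lines by 0.31 ± 0.11 (edgeR interaction, adjusted p = 0.0355), but this call was lost under 12 of 21 alternatives, with adjusted p up to 0.0996. Its largest difference was between the lines, with SW620 GFP 20.9-fold below SW480 GFP (edgeR adjusted p = 2.88e-15). MCAM overlaps CBL on the other strand, and CBL was at 134 ± 8.41 CPM in SW620 GFP and 118 ± 8.85 in SW480 GFP.

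ICAM1, the receptor to which leukocyte integrins bind and an inducible gene of NF-kB and interferon signalling (chromosome 19, 10271093 to 10286615, plus strand), rose in SW480. It was at 33.7, 35.9, 33.5 and 40.4 CPM with GFP and at 43.9, 54.6, 50.9 and 54.2 CPM with dnLEF1, every library above the GFP libraries. The rise was 1.42-fold (log2 0.51 ± 0.08, edgeR adjusted p = 0.000213). In SW620 it was low, at 1.27 to 2.13 CPM with GFP and 1.90 to 2.44 with dnLEF1 (log2 0.28, 95% interval -0.14 to 0.70, edgeR adjusted p = 0.492). The effects were not shown to differ between the lines (interaction -0.22, 95% interval -0.62 to 0.18, edgeR adjusted p = 0.426). SW620 GFP was 19.9-fold below SW480 GFP (edgeR adjusted p = 6.60e-13). Of the 24 genes around ICAM1, 12 rose and 1 fell in SW480 (24.2% and 24.4% of all genes tested), with a median log2 change of 0.28, and the share of that shift in the rise was not tested. The summed level of 7 markers of haematopoietic cells was 2.45 to 4.65 CPM in SW480 GFP and 5.34 to 7.13 in SW480 dnLEF1, and PTPRC and CD3E, which define leukocytes and T cells, had no count in the dnLEF1 libraries.

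L1CAM, a neural adhesion molecule seen at the invasive front of colon cancers and a known Wnt target there (chromosome X, 153861514 to 153886173, minus strand), was among the more abundant members. In SW480 it was at 152, 147, 139 and 162 CPM with GFP and at 117, 136, 130 and 129 CPM with dnLEF1. The groups did not overlap, but the fall was small (log2 -0.23 ± 0.07, edgeR adjusted p = 0.0132) and the call ended without GFP replicate 4 (adjusted p = 0.0602). In SW620 it was at 56.1, 47.5, 47.0 and 49.4 CPM with GFP and at 43.9, 44.1, 43.5 and 47.3 CPM with dnLEF1, with overlap (log2 -0.16, 95% interval -0.31 to -0.02, edgeR adjusted p = 0.192). The interaction was 0.07 (95% interval -0.13 to 0.26, edgeR adjusted p = 0.653). SW620 GFP was 3.01-fold below SW480 GFP (edgeR adjusted p = 3.58e-11). The summed level of 6 neuronal markers was 168 to 199 CPM in SW480 GFP, 130 to 139 in SW480 dnLEF1, 253 to 287 in SW620 GFP and 269 to 277 in SW620 dnLEF1. The SW620 sums were mostly TUBB3 and SYT1, at 115 and 139 CPM with GFP. SYP and SNAP25 were lower there, at 9.70 and 0.0337 CPM with GFP beside 25.0 and 5.81 in SW480 GFP. ELAVL3 had no count in any group and STMN2 at most 0.0213 CPM, and the part of such a shift in the falls of L1CAM and NCAM1 was not tested.

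The carcinoembryonic antigen genes lie together on chromosome 19. CEACAM1, whose tail carries inhibitory motifs that bind the phosphatases PTPN6 and PTPN11, was the member with the smallest differences between groups (42507304 to 42561234, minus strand). It was at 5.17, 10.7, 10.6 and 11.2 CPM in SW480 GFP, 7.57, 10.2, 9.64 and 10.1 in SW480 dnLEF1, 5.35, 10.2, 7.35 and 9.29 in SW620 GFP and 7.12, 8.78, 9.68 and 10.8 in SW620 dnLEF1. All groups overlapped, and replicate 1 was the lowest library in each of the 4 groups. The log2 change was 0.00 in SW480 (95% interval -0.41 to 0.42, edgeR adjusted p = 0.987) and 0.18 in SW620 (95% interval -0.21 to 0.56, edgeR adjusted p = 0.658). Between the GFP libraries it was -0.22 (95% interval -0.72 to 0.27, edgeR adjusted p = 0.385), and it passed without SW480 GFP replicate 1 (-0.43, adjusted p = 0.0339).

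CEACAM5 encodes the tumour marker CEA (41708585 to 41730433, plus strand), and CEACAM6 a related lipid-anchored protein of colon epithelium (41750977 to 41772211, plus strand). Neither was detectable beyond a few reads. CEACAM5 had 1 count over the SW480 GFP libraries, 2 over SW480 dnLEF1, 5 over SW620 GFP and 3 over SW620 dnLEF1. CEACAM6 had 3, 0, 4 and 4 counts in the same order. The highest upper bound was 0.137 CPM (95% exact Poisson interval, CEACAM5 in SW620 GFP), and the 0 of CEACAM6 in SW480 dnLEF1 allows up to 0.0402 CPM by the same interval. Reads that fit more than 1 place are not in the gene counts, so CEACAM genes, which share similar stretches, may be undercounted.

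EPCAM (chromosome 2, 47345158 to 47387601, plus strand) was the most abundant member in every group. In SW480 it was at 378, 360, 386 and 401 CPM with GFP and at 321, 299, 298 and 326 CPM with dnLEF1, without overlap. It fell 1.22-fold (log2 -0.29 ± 0.06, edgeR adjusted p = 0.00177). In SW620 it was at 515, 506, 533 and 509 CPM with GFP and at 470, 463, 452 and 467 CPM with dnLEF1, every dnLEF1 library again lower. This difference of -0.16 ± 0.05 did not pass over all genes (edgeR adjusted p = 0.0692), although it did under DESeq2 (adjusted p = 0.00294). The effects were not shown to differ between the lines (interaction 0.14, 95% interval -0.01 to 0.29, edgeR adjusted p = 0.170). SW620 GFP stood 1.35-fold above SW480 GFP (log2 0.43 ± 0.05, edgeR adjusted p = 3.82e-06). The summed level of 7 colon epithelial markers was 10346 to 12123 CPM in SW480 GFP and 6792 to 8191 in SW480 dnLEF1, and 9419 to 11738 and 8063 to 10372 in the SW620 groups. Nearly all of this was KRT8, KRT18 and KRT19. Other markers of the list went different ways in SW480: CDX2 from 12.2 to 0.131 CPM and VIL1 from 3159 to 224 counts over the group, whereas CDH1 went from 13.3 to 39.0 CPM. In SW620 CDH1 went the other way, from 65.1 to 26.9 CPM, while VIL1 went from 365 to 303 CPM and CDX2 from 6.62 to 8.83. The part of these shifts in the differences of EPCAM was not tested.

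**Figure D3:**
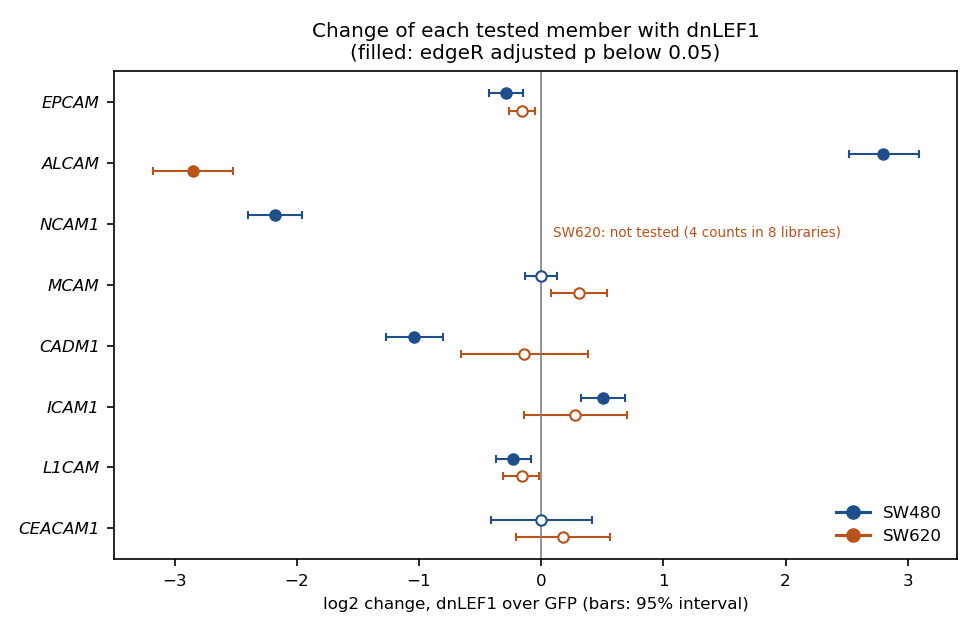
Log2 change with dnLEF1 (horizontal axis, bars for the 95% interval) of each tested member in SW480 (blue) and SW620 (orange), with filled points for an edgeR adjusted p below 0.05. ALCAM lies at 2.80 in SW480 and -2.85 in SW620, while the other intervals in SW620 stay between -0.66 and 0.70.

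Over all 10 genes, 8 had enough counts to be tested in SW480, of which 2 rose (ALCAM and ICAM1) and 4 fell (NCAM1, CADM1, L1CAM and EPCAM). Over all genes tested in that line, 48.5% were called (24.2% higher and 24.4% lower), so 6 of 8 is read against a line in which nearly 1 gene in 2 changed. The median log2 change of the 8 was -0.11, beside 0.00 over all genes, and the median size 0.40 beside 0.25. In SW620, 7 were tested and 1 fell, where 8.46% of all genes tested were called (6.03% higher and 2.43% lower), with a median of -0.14 beside 0.00. Between the GFP libraries, where 78.0% of the genes tested were called (37.7% higher in SW620 and 40.3% lower), 2 of 8 members were higher in SW620 (ALCAM and EPCAM) and 5 lower, and CEACAM1 did not pass. The effect differed between the lines for 3 of 8, where 28.5% of all genes were called (16.2% higher and 12.3% lower). The 8 include NCAM1, whose few counts in SW620 cannot show a difference either way (interaction 0.93, 95% interval -4.66 to 6.52).

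Levels of different genes were compared per kilobase of merged exons of GENCODE 44, which counts all annotated exons and so only approximates the transcripts in these cells. In SW480 GFP the order was EPCAM at 157 CPM per kb, MCAM at 25.2, L1CAM at 20.6, ICAM1 at 10.4, CADM1 at 3.96, NCAM1 at 3.14, CEACAM1 at 1.70 and ALCAM at 0.416. Of these neighbours only CADM1 and NCAM1 overlapped. In SW480 dnLEF1 ALCAM ranked 5, at 2.90 CPM per kb, above CADM1 at 1.93 and without overlap with it. In SW620 GFP EPCAM was at 212, L1CAM at 6.88 and ALCAM at 1.87 CPM per kb, and ALCAM overlapped CEACAM1 at 1.46, which overlapped MCAM at 1.21. In SW620 dnLEF1 ALCAM stood below these, at 0.259 CPM per kb, and overlapped CADM1 at 0.297. EPCAM led the order and overlapped no other member in all 4 groups.

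Over the 16 libraries, the 3 genes most like ALCAM by Pearson's r of log2 CPM were SCNN1A, a subunit of the epithelial sodium channel (0.946), ADGRL1, an adhesion G protein-coupled receptor (0.912), and PPARGC1A, a transcriptional coactivator (0.901). For CEACAM1 the closest were KIF12 (0.807), GRAP2 (0.805) and YBX2 (0.793). For EPCAM they were HKDC1, C17orf58 and FAM83H-AS1, and for L1CAM CHGA, GLI3 and PCSK1. For these and the other 4 members above 1 CPM the 3 closest reached 0.981 to 0.998. The libraries share line and construct, so these correlations largely restate the levels of the 4 groups. Between members, NCAM1, MCAM, CADM1, ICAM1 and L1CAM correlated at 0.93 to 0.99 with one another, EPCAM at -0.93 to -0.77 with them and ALCAM at 0.10 to 0.25.

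Related genes were described by 3 lists. Of 52 other Ig-type adhesion genes, 24 were tested in SW480, of which 8 rose and 10 fell, where 48.5% of all genes tested were called. Their median log2 change was -0.15 beside 0.00 over all genes. Of those named by the rule for each list, MPZL2, an epithelial adhesion molecule, fell from 155 ± 9.80 to 31.2 ± 1.64 CPM (edgeR adjusted p = 9.45e-12). CXADR, the coxsackievirus and adenovirus receptor of tight junctions, fell 6.62-fold. CNTN1, a contactin of axons, fell 18.4-fold. The laminin receptor gene BCAM rose from 67.0 ± 4.62 to 137 ± 15.3 CPM (edgeR adjusted p = 1.97e-07). In SW620, 17 were tested, 2 rose and 1 fell, where 8.46% of all genes were called. NRCAM, a close relative of L1CAM, rose from 8.33 ± 1.36 to 18.0 ± 1.74 CPM (edgeR adjusted p = 3.07e-05), LSAMP, a lipid-anchored neural adhesion gene, rose 1.97-fold and F11R, a junctional adhesion molecule, fell 1.19-fold. F11R fell more in SW480, 1.46-fold (edgeR adjusted p = 1.28e-05). The effects differed between the lines for CXADR, MPZL2, BCAM and F11R (edgeR interaction, adjusted p = 5.43e-13, 5.95e-13, 0.000146 and 0.00668). They also differed for NRCAM and LSAMP (adjusted p = 0.00439 and 4.05e-05), which had too few counts to be tested in SW480 alone.

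Of 19 EPCAM partners and cleavage genes, all 19 were tested in SW480, of which 6 rose and 3 fell, with a median of 0.03. This is close to the 48.5% called over all genes of that line. FHL2, which binds the EPCAM tail, rose from 52.6 ± 2.33 to 180 ± 9.52 CPM (edgeR adjusted p = 4.98e-11). The tetraspanin gene CD9 rose 1.32-fold, the tetraspanin gene TSPAN8 fell 5.52-fold from 3.22 ± 1.04 CPM, and BACE1, a protease that can cut EPCAM, fell 1.48-fold. The proteases of the main cleavage, ADAM10 and ADAM17, did not pass in either line. In SW620, where 8.46% of all genes were called, 18 were tested and 1 fell, ST14, which encodes the EPCAM-cutting protease matriptase, from 93.7 ± 8.19 to 53.0 ± 2.32 CPM (edgeR adjusted p = 3.58e-06). It fell in SW480 too, from 140 ± 6.57 to 110 ± 5.69 CPM (edgeR adjusted p = 0.000483). Chosen after their values were seen, 2 further partners differed between the GFP libraries of SW480 and SW620. CLDN7, the claudin that binds EPCAM, was at 116 ± 0.928 and 1.70 ± 0.553 CPM (edgeR adjusted p = 9.35e-15), and CD44 at 151 ± 15.3 and 13.2 ± 1.51 CPM (edgeR adjusted p = 1.71e-13).

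Of 27 ligands and inner partners of the members, 22 were tested in SW480, of which 7 rose and 8 fell, with a median of -0.04, beside 24.2% and 24.4% of all genes. LAMA4, the laminin chain to which MCAM binds, had 7 counts in SW480 GFP and was at 3.03 ± 0.581 CPM with dnLEF1 (edgeR adjusted p = 3.33e-07). Its log2 change of 5.20 ran from 4.75 to 5.95 over the alternatives. EZR, the ezrin that links ICAM1 and L1CAM to actin, rose from 238 ± 11.4 to 371 ± 6.80 CPM. FGFR1, a receptor that NCAM1 and L1CAM can bind, fell 1.78-fold and LGALS3, which encodes galectin-3, 2.24-fold. In SW620, 19 were tested, 1 rose and 2 fell, beside 6.03% and 2.43% of all genes. NRP1, a co-receptor of L1CAM in axon guidance, rose from 11.7 ± 1.49 to 32.7 ± 2.70 CPM (edgeR adjusted p = 3.35e-07). The ankyrin gene ANK3, which anchors L1CAM, fell 1.44-fold and TIAM1, a Rac activator bound by CADM1, 1.26-fold. NRP1 rose in SW480 too (log2 0.66 ± 0.13), ANK3 fell there (-1.59 ± 0.17) and TIAM1 fell there (-0.26 ± 0.09).

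**Figure D4:**
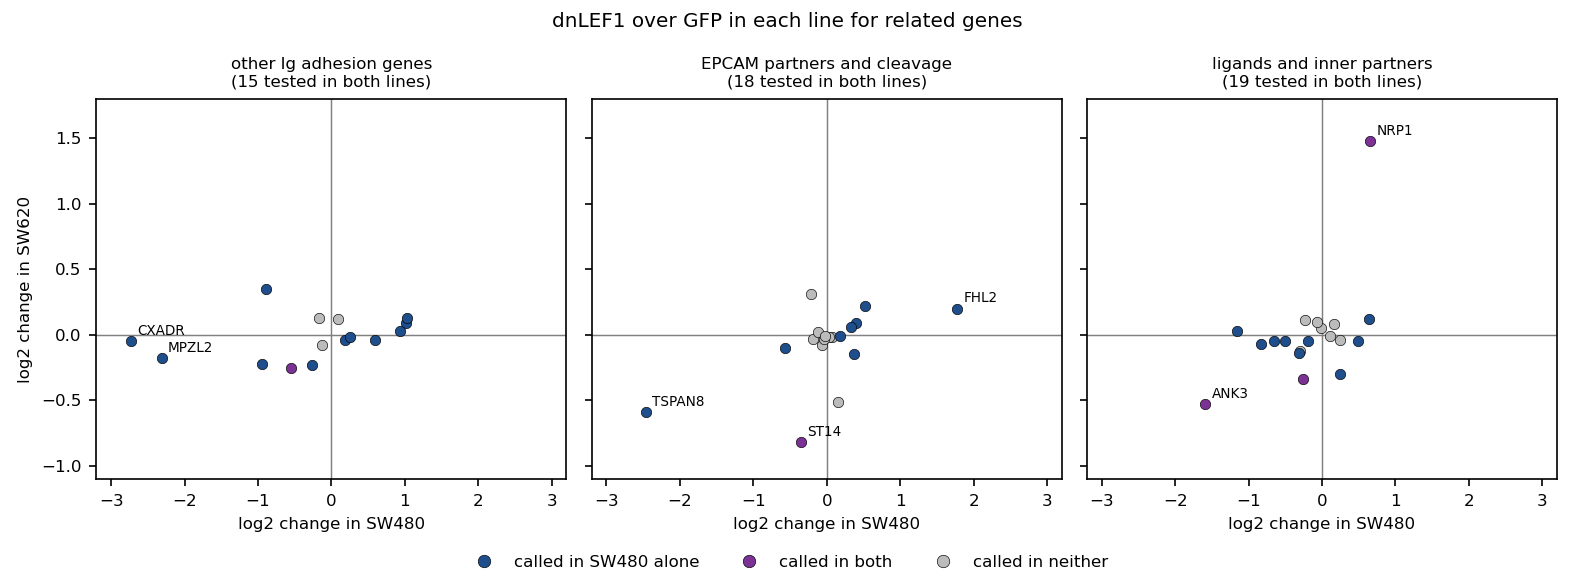
Log2 change with dnLEF1 in SW480 (horizontal axis) against SW620 (vertical axis) for the related genes tested in both lines, 15, 18 and 19 by list, with 1 point per gene coloured by the lines in which its edgeR adjusted p was below 0.05. CXADR and MPZL2 lie at -2.73 and -2.31 in SW480 and near 0 in SW620, while NRP1 and ST14 were called in both lines.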

How the data were processed

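The authors deposited raw counts of reads per gene, 1 file per library. The submitters' processing notes name Trimmomatic, TopHat2, HTSeq, DESeq2 and hg38. Of versions, annotation and strand setting nothing is given in the sources used here, so reads of overlapping genes on opposite strands cannot be told apart. The 5 summary lines of each file name no gene. These lines were not used. Their share was 50.5% in SW620 GFP replicate 3 and 20.0% to 24.3% elsewhere. Positions and exon lengths come from GENCODE 44 on hg38.

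Groups and replicate numbers come from the labels. Within a group, library pairs differed by 1.96 to 21.0 chi-square per degree of freedom, above counting noise, so all 16 were counted. In SW480 GFP, replicate 1 differed from the others by 12.3 to 13.8 and these among themselves by 1.96 to 6.5. In SW620 GFP the same ranges were 11.7 to 16.9 and 4.69 to 7.21. In both dnLEF1 groups the ranges overlapped. Replicates 2 and 3 were the closest pair in both SW480 groups, at 1.96 with GFP and 2.27 with dnLEF1. The next closest pairs there were at 6.47 and 12.6. The test was that of edgeR 4.0.16, run in R 4.3.3 on the deposited counts (TMM, filterByExpr, quasi-likelihood test, Benjamini-Hochberg over all genes tested, called below 0.05), on the 8 libraries of each comparison and on all 16 for the interaction. The ± of a log2 change is an approximate standard error: the change divided by the root of F. DESeq2 1.42.0 and limma 3.58.1 (voom) served as alternatives. The fits were tested on simulated data.

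The members, the lists and the rule for naming genes were chosen with earlier results of these data known. The rule names all members, LEF1, AXIN2, the 4 called genes with the smallest adjusted p of each related list and line at 1 CPM or more in 1 group, and the 3 genes most like each member. The other marker lists were of endothelial cells (6 genes, summed level 0.790 to 3.91 CPM over the libraries) and fibroblasts (7 genes, 8.89 to 38.0 CPM). Within these sums single genes moved both ways in SW480 from GFP to dnLEF1. COL1A1 went from 4.84 to 28.1 CPM and VWF from 0.870 to 2.98, whereas LUM went from 7.20 to 0.00 and PDGFRB from 1.31 to 0.348.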

Additional observations from a re-analysis of the deposited data

Results flagged for a closer look

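For 3 members the effect of dnLEF1 differed between the lines by the interaction test, given as SW620 minus SW480 on the log2 scale: ALCAM at -5.65, CADM1 at 0.90 and MCAM at 0.31. Of these, ALCAM moved in opposite directions, with every dnLEF1 library on the same side of its controls in each line. For 2 of 30 sets of 4 libraries, 1 library lay far from the other 3 by Dixon's criterion, which chance meets in about 1 in 20 sets. These were CEACAM1 in SW480 GFP replicate 1, at 5.17 CPM beside 10.6 to 11.2, and L1CAM in SW620 dnLEF1 replicate 4, at 47.3 CPM beside 43.5 to 44.1.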

How the results depend on the processing

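Of 31 tested changes of members, 21 kept their direction and their side of the threshold under every alternative, and 10 did not under at least 1. ALCAM ran from 2.70 to 2.88 in SW480, from -2.95 to -2.74 in SW620 and from -5.74 to -5.54 for the line difference. NCAM1 between the lines ran from -10.84 to -9.54. The causes of the following shifts were not tested. Without single libraries, 4 changes that had not passed turned sign: MCAM in SW480 ran from -0.02 to 0.03, CEACAM1 in SW480 from -0.20 to 0.10, CADM1 in SW620 from -0.37 to 0.05, and the NCAM1 line difference, which rests on 4 counts in SW620, from -0.67 to 1.86. Members with a higher effect in SW620 numbered 1 under limma voom and 1 with no filter on low counts, and 0 to 2 without single libraries, in place of 2. In SW620, with DESeq2, 2 members fell in place of 1, 1 EPCAM partner rose in place of 0 and 2 ligands or inner partners rose in place of 1. Limma voom also gave 1 EPCAM partner higher. With no filter, 2 other Ig genes fell and 2 ligands or inner partners rose in SW620. In SW480 the 10 falls of other Ig genes became 16 with DESeq2 and 16 with no filter. In 1 fit of all 16 libraries 1 member rose in SW620. Leaving out single SW620 libraries gave 1 to 2 other Ig genes lower and 0 to 2 EPCAM partners higher.

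Same-numbered libraries of the constructs correlated at -0.07 to 0.25 in their deviations from the group means. The labels do not say that the numbers pair libraries, and the main fits did not pair them. Whether same-numbered libraries share a batch cannot be told from the labels. In SW620 replicates 1, 3 and 4 (0.25, 0.12 and 0.15) and in SW480 replicate 1 (0.22) matched their own number best. With the replicate number as a block, 676 genes fell in SW620 in place of 324, 1 member rose (MCAM, adjusted p = 0.0274) and 2 fell (ALCAM and EPCAM, the latter at 0.0197), 1 EPCAM partner rose, and in SW480 5 EPCAM partners fell in place of 3.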

Other observations

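Among the other CEACAM genes, chosen after their values were seen, CEACAM21 fell 3.83-fold in SW480, from 5.79 ± 1.98 CPM (edgeR adjusted p = 3.95e-05) and had 3 counts over the SW620 GFP libraries and 0 over SW620 dnLEF1. CEACAM19 rose in SW480 from 1.03 ± 0.182 to 2.07 ± 0.626 CPM (edgeR adjusted p = 0.00443) and was at 2.62 ± 0.396 and 2.84 ± 0.840 CPM in the SW620 groups. CEACAM3, CEACAM4, CEACAM7 and CEACAM8 had no count in any library. ITGB2, the beta chain of the leukocyte integrins that bind ICAM1, rose in SW480 from 0.280 ± 0.142 to 1.89 ± 0.361 CPM (edgeR adjusted p = 7.13e-06). Of the alpha chain genes, ITGAL had 0 counts there with GFP and 3 with dnLEF1. ITGAM had 4 counts with GFP and 55 with dnLEF1, at 0.605 ± 0.278 CPM. Both had too few counts to be tested.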
